A study of Mus musculus with 8 samples.

Results

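The S100 calcium-binding proteins were followed through 8 genes, S100a1, S100a4, S100a6, S100a10, S100a11, S100a13, S100a16 and S100b, of 31053 genes in the deposited tables. The 8 were chosen by symbol, out of 17 S100 genes listed, with measured values of these data in view, and all 8 passed the filter on low counts in every comparison below. Each library held parietal bone cells of newborn mice aged 4 to 5 days, pooled from several pups of 1 genotype, and 8 libraries were made by droplet single-cell RNA sequencing, which counts unique molecular identifiers (UMIs). The 4 WT libraries (1, 2, 5 and 6) and the 4 Het libraries (3, 4, 7 and 8) came from the strain B6.129(FVB)-Col1a2tm1Mcbr/J. Het animals carried 1 copy of the G610C allele of Col1a2, a glycine to cysteine change in a chain of type I procollagen, which is present in every cell and not driven by a transgene. Libraries 1 to 4 were made with kit version 3 and libraries 5 to 8 with version 3.1, and the kit, the software version and the experiment changed together, so they cannot be told apart.

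S100 proteins are small cytosolic proteins with a pair of EF-hand loops. Most change shape when calcium binds and then attach to a target protein, such as an annexin or a myosin heavy chain, and they have no enzyme activity of their own. S100a1 and S100b are well known from cartilage, where the SOX transcription factors of chondrocytes drive them, while S100a4, S100a6, S100a10 and S100a11 are found in many motile and mesenchymal cells. S100a10 is the exception in the family, since it has lost calcium binding and stays bound to annexin A2.

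A total of 46420 cells from 68625 barcodes had at least 500 genes and under 10% mitochondrial UMIs. Library totals ran from 30480239 to 85162035 UMIs, and the median per cell from 3762.5 to 14264. Osteoblasts (OBs) were cells with 10 or more Col1a1 UMIs and 2 or more UMIs in at least 2 of Runx2, Sp7 and Ibsp, split by the Col1a1 share of UMIs into early OBs (eOBs, under 0.75%, 379 cells), differentiating OBs (dOBs, 0.75% to 3.5%, 1217 cells) and mature OBs (mOBs, over 3.5%, 1075 cells). The remaining cells were 15370 Col2a1-high cells (Col2a1 over 1% of UMIs) and 28379 other cells. Of the OB markers that the rule did not use, Col1a2, Bglap, Ifitm5 and Dmp1 rose in median from eOBs to dOBs to mOBs. Alpl did not, with medians of 0.0418%, 0.0549% and 0.0502% of UMIs. The mature OB marker Bglap had a median of 0.402% of UMIs in mOBs against 0.00679% in eOBs. The cartilage proteoglycan Acan had one of 0.261% in Col2a1-high cells against 0.0113% in mOBs, 0.0177% in dOBs, 0.0286% in eOBs and 0.0237% in other cells. WT libraries 1 and 2 stood apart: 57.5% and 47.8% of their other cells had 3 or more haematopoietic markers, against 8.34% to 14.3% in the remaining 6 libraries. In the version 3.1 libraries 90.0% to 100% of eOBs had 3 or more chondrocyte markers, and 93.3% to 98.1% of mOBs. In the version 3 libraries the eOB shares were 8.64% and 8.70% in WT and 45.5% and 26.1% in Het. The mOB shares there were 6.85% and 19.5% in WT and 63.3% and 41.1% in Het. Pairs of libraries shared 2 to 61 cell barcodes.

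The 8 genes lie in few places of the mouse genome. On build GRCm38, 5 of them (S100a1, S100a13, S100a16, S100a4 and S100a6) lie within 113 kb of chromosome 3. S100a11 and S100a10 follow 2896 kb further on, within 44.2 kb, and S100b is alone on chromosome 10 (chr10:76253853-76261159). S100a1 (chr3:90511034-90514392) is on the reverse strand and S100a13 (chr3:90514435-90524581) on the forward strand, so that they point away from each other across 42 bases. Reads at 2 members are shared ground: 2115 bases of S100a4 (chr3:90603771-90606045) overlap Gm42674 on the same strand, which had 0 UMIs, and 1731 bases of S100b overlap Dip2a on the opposite strand. Values of S100a4 and S100b are therefore uncertain as to reads that the counting could not assign.

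RefSeq start-site windows of build GRCm38.p6 were at hand for 7 of the 8 members, in 8 windows. The sequences are written 5′ to 3′ and begin with the bases between the S100a1 and S100a13 genes (chr3:90514393-90514434, forward strand), because these neighbours have different patterns across cells. Stretches before the start of S100a4 (chr3:90603620-90603769), the member with the widest genotype difference in eOBs, of S100a11 (chr3:93520356-93520486), which is lower in mOBs, and of S100b (chr10:76253686-76253835), the member with the widest difference between cell classes, are also given, all on the forward strand. Capitals mark TATAAA in S100a4, and GGGCGG (the GC box) and TGANTCA (the AP-1 motif) in S100a11.
S100a1-S100a13: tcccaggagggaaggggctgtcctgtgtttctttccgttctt
S100a4: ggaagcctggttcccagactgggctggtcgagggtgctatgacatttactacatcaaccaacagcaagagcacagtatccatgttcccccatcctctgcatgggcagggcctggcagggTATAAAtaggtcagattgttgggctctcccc
S100a11: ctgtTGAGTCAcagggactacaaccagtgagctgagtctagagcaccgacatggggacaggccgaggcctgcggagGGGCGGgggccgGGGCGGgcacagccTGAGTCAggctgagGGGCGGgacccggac
S100b: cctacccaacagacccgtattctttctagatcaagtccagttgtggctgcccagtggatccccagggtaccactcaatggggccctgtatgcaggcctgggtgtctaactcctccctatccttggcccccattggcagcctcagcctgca

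The motifs were searched on both strands in the 250 bases before each start, and no marked matches overlap. TATAAA was in 1 of the 8 member windows, that of S100a4, 31 to 26 bases before the start, and in 12.4% of all 32851 windows. GGGCGG was in 2 of 8 member windows, with 3 copies in S100a11 and 1 in an S100a16 window, against 32.7% of all windows. TGANTCA was in the same 2 of 8, with 2 copies in S100a11, against 6.75% of all. AACAAT, a SOX core motif, was in 2 of 8 (S100a4 and an S100a16 window) against 9.42%, and ACAAAG in 0 of 8 against 16.5%. These letters are a description of the windows and not binding sites.

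How the family is spread over cell types was asked first, as a description with no test, because the classes were cut from the same cells. The members fell into a cartilage pair, S100b and S100a1, and 6 genes that were lower in Col2a1-high cells than in OBs on average. S100b, a calcium sensor of cartilage and glia, made up 0.0621% ± 0.0068 of UMIs in Col2a1-high cells (mean ± SD, n = 8 libraries), and 0.0144% ± 0.0079 in eOBs, 0.00403% ± 0.00230 in dOBs and 0.00130% ± 0.000823 in mOBs. In Col2a1-high cells its share was 0.0621%, 0.0694%, 0.0551% and 0.0589% in WT libraries 1, 2, 5 and 6, and 0.0674%, 0.0718%, 0.0585% and 0.0533% in Het libraries 3, 4, 7 and 8. The same libraries gave 0.000420%, 0.00159%, 0.00182% and 0.00123% in WT mOBs, and 0.00107%, 0.000245%, 0.00286% and 0.00120% in Het mOBs. Within each library S100b was 7.85 to 53.0 times higher in Col2a1-high cells than in all OBs together.

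S100a1, its partner in chondrocytes and a regulator of calcium handling in muscle, was 2.26 to 4.89 times higher in Col2a1-high cells than in OBs. Its share there was 0.0170% ± 0.0030 (SD, n = 8) and the highest of the 5 classes in 8 of 8 libraries. The lower 4 classes overlapped, with means of 0.0080% in eOBs, 0.0054% in dOBs, 0.0051% in mOBs and 0.0048% in other cells, and the dOB value exceeded the mOB value in 3 of 8 libraries only. Thus 2 of 8 members were higher in Col2a1-high cells than in OBs in every library, beside 20.8% of 6499 genes with a mean of at least 20 CPM (counts scaled to a common library total).

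OBs may hold cartilage RNA, and several values bear on it. The 10 chondrocyte markers together made up 3.99% to 5.97% of UMIs in Col2a1-high cells, 0.0178% to 2.26% in eOBs and 0.145% to 0.420% in mOBs. S100b UMIs numbered 2.69 to 3.998 for each S100a1 UMI in Col2a1-high cells, and 0.0714 to 0.462 in mOBs. In eOBs of libraries 5 to 8 the ratio was 3.08, 2.72, 3.12 and 3.09. Col2a1-high cells of the same libraries had 3.63, 3.75, 3.88 and 3.998, higher in each. In eOBs of libraries 1 to 4 the ratio was 0.625 to 2.30, below the 2.69 to 3.93 of their Col2a1-high cells. For each 100 chondrocyte marker UMIs there were 0.892 to 1.63 S100b UMIs in Col2a1-high cells of the 8 libraries. In eOBs of libraries 5 to 8 there were 1.40, 1.09, 1.53 and 1.07. Their Col2a1-high cells had 1.002, 1.013, 0.981 and 0.892, lower in each library. In eOBs of libraries 1 to 4 there were 14.9, 71.9, 1.46 and 6.61. These were above the 1.56 to 1.63 of their Col2a1-high cells in all but library 3, which was below it. With each cell thinned to 2000 UMIs, an S100b UMI was found in a median of 60.4% of Col2a1-high cells, 20.5% of eOBs, 2.02% of mOBs and 1.34% of haematopoietic-like cells. Without thinning these medians were 91.7%, 50.1%, 14.2% and 2.24%, at median depths per library of 1051 to 17974, 6571 to 15054, 12348 to 21116 and 3019.5 to 6790 UMIs. Thinned shares of cells with S100a1 were 24.7%, 12.5%, 8.496% and 13.3% (unthinned 65.5%, 44.7%, 56.3% and 23.6%). Within libraries the thinned S100a1 share was higher in eOBs than in haematopoietic-like cells in 4 of 7 libraries (21.0% against 5.58% in WT library 1 and 13.04% against 4.10% in WT library 2) and higher in mOBs in 2 of 7. No expression is read from the shares in the remaining libraries. The part of free cartilage RNA in the OB values was not tested.

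**Figure D1:**
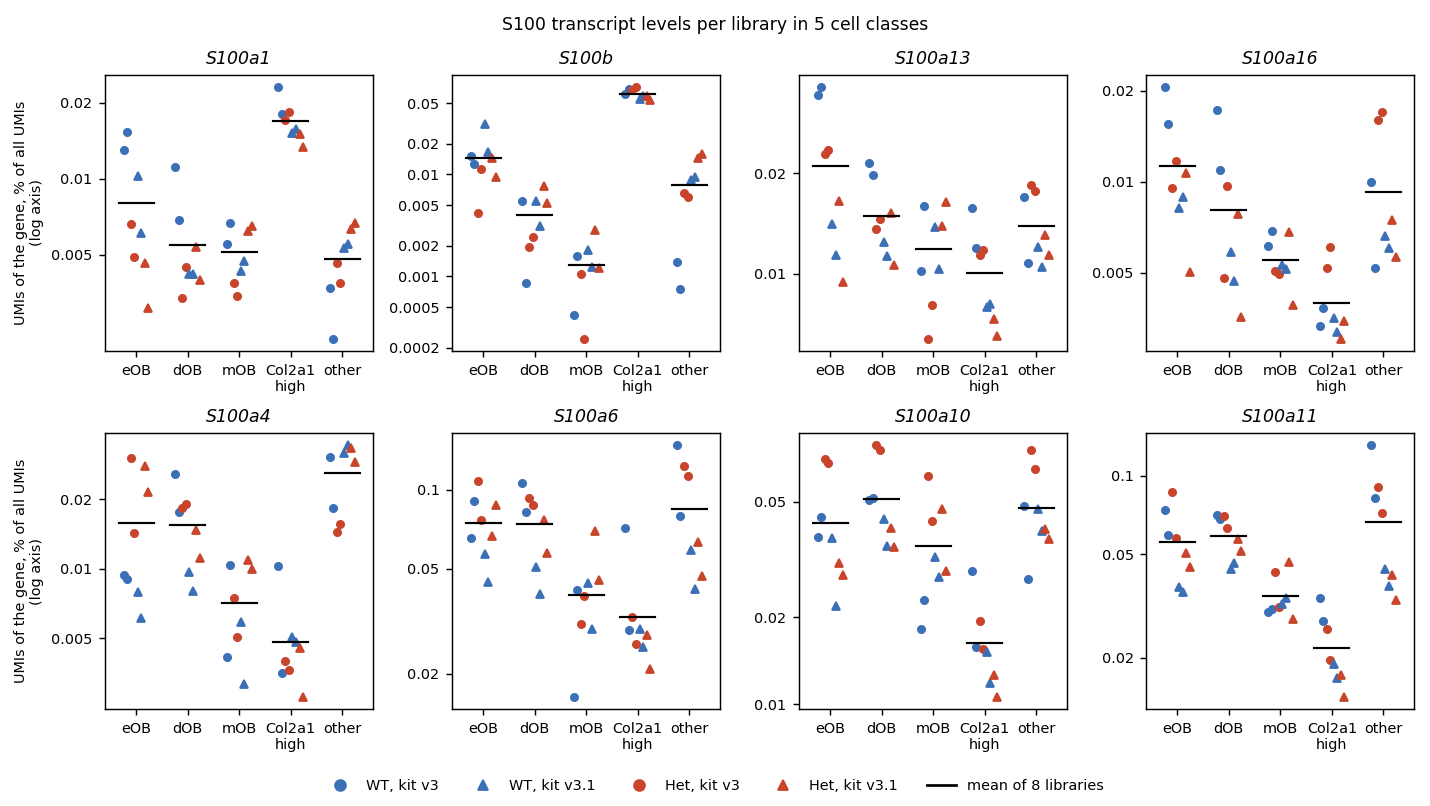
Level of each member in 5 cell classes, as percent of all UMIs on a log axis with its own range in each panel. Every point is 1 library (blue WT, red Het, circles kit version 3, triangles version 3.1) and bars are means of 8 libraries; S100b and S100a1 are highest in Col2a1-high cells in 8 of 8 libraries, and S100a10 and S100a11 are lowest there in 7 of 8.

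The other 6 members were on average lower in Col2a1-high cells than in OBs, and like S100b had their lowest OB mean in mOBs. S100a4, a motility gene whose protein binds non-muscle myosin IIA, had 0.0158% ± 0.0095 of UMIs in eOBs, 0.0155% ± 0.0058 in dOBs, 0.0071% ± 0.0030 in mOBs and 0.0048% ± 0.0023 in Col2a1-high cells (SD, n = 8). S100a6 (calcyclin) stood at 0.0745% ± 0.0203, 0.0744% ± 0.0229, 0.0396% ± 0.0156 and 0.0329% ± 0.0161 in the same classes. S100a4, S100a6 and also S100a11 were higher in dOBs than in mOBs in 8 of 8 libraries, beside 38.8% of 6380 genes. The eOB and dOB values of S100a4 and S100a6 did not separate. S100a10 peaked in dOBs, with 0.0513% ± 0.0169, and exceeded its own eOB level in 8 of 8 libraries, beside 4.36% of 7039 genes. Its mOB mean was 0.0351% ± 0.0143 and its Col2a1-high mean 0.0162% ± 0.0058. S100a11, a partner of annexin A1, had 0.0558% ± 0.0176 in eOBs, 0.0591% ± 0.0108 in dOBs, 0.0346% ± 0.0067 in mOBs and 0.0218% ± 0.0067 in Col2a1-high cells.

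S100a13, which helps export FGF1 from cells, and S100a16, a member with weak calcium binding, were highest in eOBs on average. Their eOB means were 0.0210% ± 0.01004 and 0.0113% ± 0.0048, and their mOB means 0.0119% ± 0.0037 and 0.0055% ± 0.0010. S100a13 was highest in eOBs in 7 of 8 libraries and S100a16 in 5 of 8. In Col2a1-high cells S100a4, S100a10, S100a11 and S100a16 were below OBs in 8 of 8 libraries, S100a6 in 7 and S100a13 in 6. So 4 of 8 members were lower in Col2a1-high cells in every library, beside 23% of the 6499 genes.

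From eOBs to mOBs 3 of 8 members were lower in every library: S100b, S100a11 and S100a16. The eOB value was 3.88 to 46.0 times the mOB value for S100b, 1.06 to 2.46 times for S100a11 and 1.28 to 3.36 times for S100a16. Of 6599 genes at 20 CPM or more, 29.2% were lower in mOBs in every library, and their median log2 ratio was -0.34, so the 3 of 8 is close to the background. S100a4, S100a6 and S100a13 were lower in 7 of 8 libraries, S100a1 in 6 and S100a10 in 5. Because collagen UMIs take a growing share of mOB libraries, the background was 16.2% with a median of -0.18 when collagen UMIs were left out of the total, and 2 of 8 members were then lower in every library. With eOBs held under 0.5% Col1a1 the count was 1 in 7 libraries, and with mOBs over 5% it was 5.

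**Figure D2:**
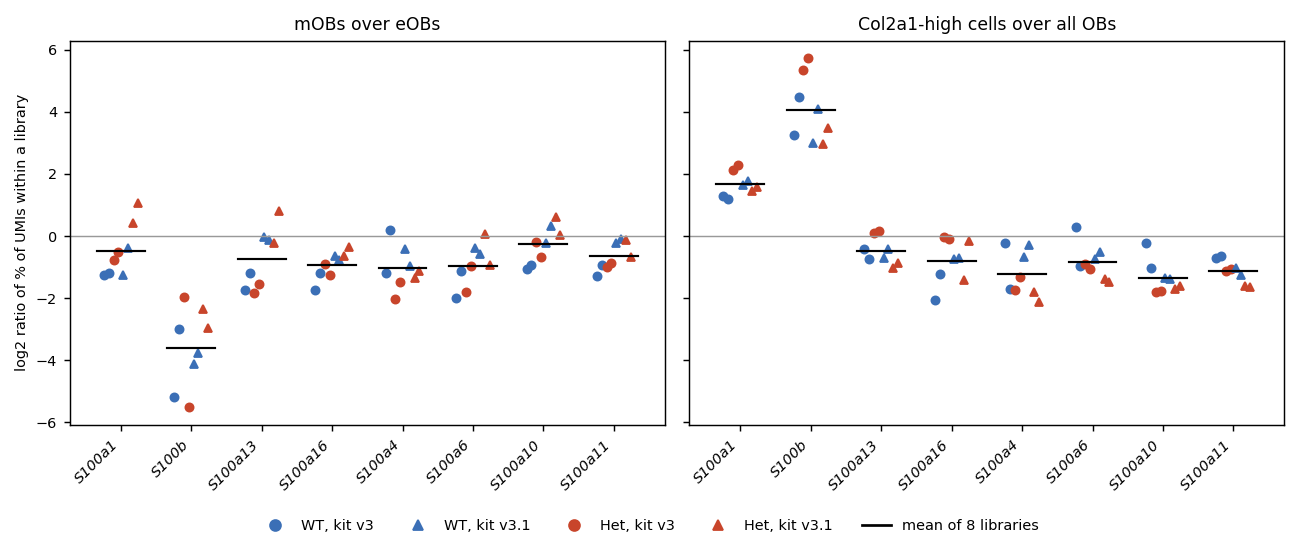
Log2 ratio of each member's percent of UMIs within a library, mOBs over eOBs (left) and Col2a1-high cells over all OBs (right). Points are libraries coloured and shaped as in the plot of levels, bars are means of 8 libraries and the grey line marks no difference; S100b lies below the line on the left and above it on the right in every library.

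Whether the G610C allele went with a change of the S100 genes was tested with edgeR's quasi-likelihood test on UMIs summed per library, with the kit version in the model and Benjamini-Hochberg adjustment over all genes. Cells of 1 library share pups and preparation, so the library was the replicate, and a sum cannot tell fewer expressing cells from less RNA per cell. None of the 8 members was called in mOBs, where 0.518% of 10033 genes were called. An unadjusted p under 0.05 was found for 1 of 8, S100a10, beside 1104 of 10033 genes, and DESeq2 called 0 of 8 and 136 genes in all. The Het and WT libraries overlapped for 8 of 8 members, while 2.57% of genes did not overlap.

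S100a10, the annexin A2 ligand, had the largest difference of the 8 in mOBs. Its share of UMIs was 0.0182%, 0.0229%, 0.0323% and 0.0274% in WT libraries 1, 2, 5 and 6, and 0.0611%, 0.0429%, 0.0472% and 0.0287% in Het libraries 3, 4, 7 and 8. All Het values but that of library 8 were above every WT value. The log2 fold change (Het over WT) was 0.78 with an SE of 0.22 (unadjusted p = 0.0035, edgeR adjusted p = 0.162). Without Het library 8, which held 42 mOBs, the fold change was 0.97 and edgeR adjusted p = 0.0267. Leaving out each library in turn gave 0.59 to 0.97, and S100a10 was called in that 1 case of 8.

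The remaining members in mOBs had log2 fold changes between -0.30 and 0.47. S100a4 had 0.0041%, 0.0103%, 0.0059% and 0.0032% of UMIs in the WT libraries (order as above) and 0.0075%, 0.0051%, 0.0109% and 0.0099% in the Het libraries. Its log2 fold change of 0.47 had an SE of 0.34 (adjusted p = 0.670 by edgeR). For S100a6 the fold change was 0.41 (SE 0.25) and for S100a11 0.18 (SE 0.15). S100a13 gave -0.30 (SE 0.23), S100a16 -0.19 (SE 0.15), S100a1 -0.17 (SE 0.22) and S100b 0.08 (SE 0.45). Single libraries weighed on these values. When 1 library was left out, S100a16 ran from -0.44 to -0.10 and S100a11 from 0.043 to 0.27. S100a4 was 0.93 without WT library 2 and 0.15 without WT library 6, S100a6 0.77 without WT library 2 and 0.23 without WT library 1, and S100a13 -0.046 without WT library 2 and -0.51 without WT library 6. The median over the 8 members was 0.13, against 0.01 over all genes tested. Summed haematopoietic markers in mOBs ran from 0.000791% to 0.0225% in WT (9 of 10 markers detected, Cd3e at 0) and from 0.000150% to 0.0160% in Het (8 of 10, Cd3e and Cd33 at 0). Chondrocyte markers ran from 0.145% to 0.341% in WT and from 0.235% to 0.420% in Het, with 10 of 10 detected in both. Smooth muscle or pericyte markers summed to 0.00630%, 0.00926%, 0.0219% and 0.0174% in WT libraries 1, 2, 5 and 6 and to 0.0266%, 0.0221%, 0.0321% and 0.0453% in Het libraries 3, 4, 7 and 8, with 5 of 6 (Myh11 at 0) and 6 of 6 detected. These did not overlap, every Het library being above every WT library. Fibroblast markers ran from 0.00102% to 0.00290% in WT and from 0.00168% to 0.00951% in Het, with 6 of 6 detected in both. S100a6 and S100a11 were abundant in cells with either set of markers, and S100a10 in fibroblast-like cells. S100a4 was abundant in smooth muscle or pericyte-like cells (0.0505% ± 0.0168 of UMIs, n = 7). The part of these cell types in the mOB differences was not tested.

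**Figure D3:**
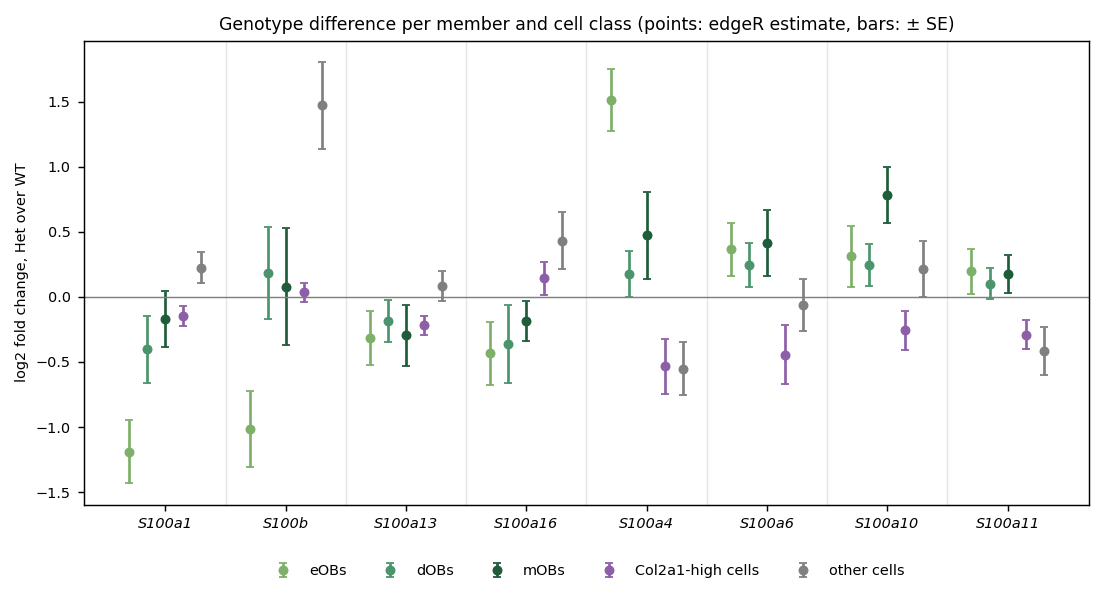
Log2 fold change of Het over WT for each member in 5 cell classes, from edgeR (points) with ± SE (bars), n = 4 libraries per genotype. S100a4, S100a1 and S100b in eOBs and S100b in other cells lie furthest from 0, and none of the members passed the adjusted threshold in any class.

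In dOBs 0 of 8 members were called, where 0.00981% of 10190 genes were, and none had an unadjusted p under 0.05, beside 751 genes, or was called by DESeq2, which called 4 genes. The fold changes ran from -0.40 (S100a1, SE 0.26) to 0.25 (S100a6, SE 0.17), and S100a10 had 0.25 (SE 0.16). Without 1 library S100a1 ran from -0.76 (without Het library 7) to -0.046 (without WT library 1), and S100a10 from 0.15 (without WT library 1) to 0.39 (without WT library 5). Het and WT libraries overlapped for each member, with 1.55% of genes not overlapping. The genotype effect on S100a10 was larger in mOBs than in dOBs by 0.48 on the log2 scale (SE 0.15, unadjusted p = 0.0072), but edgeR adjusted p = 0.488, and with cells thinned to 2000 UMIs the difference was 0.057. That test of the stage difference called 0 of 8 members and 0% of 11187 genes, with 1 member at an unadjusted p under 0.05, beside 791 genes, and 0 called by DESeq2, which called 5 genes.

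Among the OB stages, the widest genotype differences of the 8 members were in eOBs, the stage with the fewest cells (22 to 95 per library), and they were also not called. Of 8732 genes tested, 0% were called by edgeR, and 338 had an unadjusted p under 0.05, with 3 of 8 members among them. S100a4 made up 0.0094%, 0.0090%, 0.0080% and 0.0061% of UMIs in WT libraries 1, 2, 5 and 6, and 0.0302%, 0.0142%, 0.0278% and 0.0214% in Het libraries 3, 4, 7 and 8. Every Het library was above every WT library, and S100a4 was the 1 member of 8 without overlap, beside 1.37% of genes. The log2 fold change was 1.51 (SE 0.24, unadjusted p = 4.75e-05, edgeR adjusted p = 0.138), and DESeq2 called S100a4 with 1.52 (SE 0.28, adjusted p = 0.000458), 1 of 3 genes it called. The fold change was smaller under other cell choices, 0.90 with cells thinned to 2000 UMIs and 0.49 with a looser OB selection.

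The number of cells behind the S100a4 values differed between libraries. In Het library 3, 9 of 22 eOBs had an S100a4 UMI and 1 cell held 50.7% of the 73 UMIs. In Het library 7 they were 37 of 58, and the highest cell held 12.9% of 311 UMIs. With the highest cell of each library left out, the values were 0.0075%, 0.0070%, 0.0061% and 0.0053% in WT and 0.0166%, 0.0107%, 0.0279% and 0.0161% in Het, still without overlap. S100a4 was abundant in haematopoietic-like cells (0.0719% ± 0.0236, SD, n = 7) and in smooth muscle or pericyte-like cells (0.0505% ± 0.0168, n = 7). In eOBs the summed haematopoietic markers were 0.0058% to 0.0436% in WT and 0.000557% to 0.0308% in Het (9 of 10 and 8 of 10 detected, Cd3e at 0 in both and Cd79a in Het). Smooth muscle or pericyte markers were 0.0424% to 0.0720% in WT and 0.0377% to 0.211% in Het, with 6 of 6 detected in both, and their part in the result was not tested.

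The cartilage pair had lower mean levels in Het than in WT eOBs. S100a1 had 0.0130%, 0.0153%, 0.0102% and 0.0061% of UMIs in WT and 0.0066%, 0.0049%, 0.0047% and 0.0031% in Het. Only WT library 6 lay within the Het range, and the log2 fold change was -1.19 (SE 0.25, unadjusted p = 0.00046, edgeR adjusted p = 0.485). S100b had 0.0151%, 0.0128%, 0.0315% and 0.0166% in WT and 0.0041%, 0.0113%, 0.0145% and 0.0095% in Het, a log2 difference of -1.01 (SE 0.29, unadjusted p = 0.0049, edgeR adjusted p = 0.9998). Het library 7 was above WT library 2, so the groups overlapped. The S100b value ran from -0.36 with a looser OB selection to -1.93 with chondrocyte-marker OBs left out. The thinned share of eOBs with an S100a1 UMI was not above that of haematopoietic-like cells in 3 of 7 libraries, Het libraries 3 and 4 and WT library 6. Chondrocyte markers in eOBs summed to 0.102% and 0.0178% in WT and 0.284% and 0.170% in Het for version 3, and to 2.26% and 1.52% in WT and 0.947% and 0.887% in Het for version 3.1, with 10 of 10 detected in both genotypes. In version 3.1 they were thus higher in WT, as S100b was, while in version 3 they were higher in Het and S100b was lower there. Cells with Col2a1 at or under 1% were 56 of 95 and 36 of 50 WT eOBs and 52 of 58 and 23 of 27 Het eOBs there, and with such cells alone S100b had -0.72. The part of cartilage RNA or cells was not tested. S100a10 in eOBs gave 0.31 (SE 0.23), and 0.16 to 0.61 when 1 library was left out.

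In Col2a1-high cells 0 of 8 members were called, where 0.103% of 14600 genes were, and 1.45% of genes did not overlap, with 0 of 8 members among them. DESeq2 called 0 of 8 and 53 genes in all, and 3 members had an unadjusted p under 0.05, beside 1024 of 14600 genes. These were S100a13 at -0.22 (SE 0.08), S100a11 at -0.29 (SE 0.11) and S100a4 at -0.53 (SE 0.21), and 6 of 8 fold changes were negative. Without 1 library S100a13 ran from -0.27 to -0.17, S100a11 from -0.39 to -0.19 and S100a4 from -0.81 to -0.34. S100b, the cartilage member, had 0.04 (SE 0.07) there. WT library 1 gave the fewest Col2a1-high cells of the 8 libraries, and 4.95% of them had 3 or more haematopoietic markers, against 0.330% to 1.33% in the other libraries. The genotype effect on S100a10 differed between mOBs and Col2a1-high cells by 0.98 on the log2 scale (SE 0.26, unadjusted p = 0.0029, edgeR adjusted p = 0.223), a test that called 0.0787% of 12702 genes and 0 of 8 members. In that test 3 members had an unadjusted p under 0.05, beside 1250 of 12702 genes, and DESeq2 called 0 of 8 and 57 genes in all.

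Other cells were a mixture whose makeup differed between libraries. Of 16374 genes 0% were called, although 3823 had an unadjusted p under 0.05, and 5.49% did not overlap. S100b had 0.00139%, 0.000758%, 0.00889% and 0.00946% of UMIs in WT libraries 1, 2, 5 and 6, and 0.00663%, 0.00597%, 0.0144% and 0.0158% in Het libraries 3, 4, 7 and 8. Within each kit both Het libraries were above both WT libraries, and the log2 difference was 1.47 with an SE of 0.33 (adjusted p = 0.150 by edgeR). DESeq2 called S100b (adjusted p = 0.00104) along with 9.72% of genes. The share of other cells with 3 or more chondrocyte markers was 3.41%, 3.17%, 89.8% and 88.4% in the WT libraries. It was 50.2%, 27.6%, 96.8% and 97.5% in the Het libraries. Within each kit this share was also higher in both Het than in both WT libraries. Between WT libraries 5 and 6 its order was opposite to that of S100b, and its part in the S100b values was not tested. S100a4 gave -0.55 (SE 0.20), and 0.61 when cells with haematopoietic markers were left out.

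Within the kits the genotype effects on several members had opposite signs in mOBs. In kit version 3 the log2 fold changes were -0.83 for S100a1, -0.88 for S100b, -0.91 for S100a13, -0.46 for S100a16 and -0.31 for S100a4, and in version 3.1 they were 0.41, 0.54, 0.26, 0.08 and 1.16. Both values were positive for S100a10 (1.25 and 0.31), S100a6 (0.20 and 0.60) and S100a11 (0.19 and 0.14). In the version 3 libraries alone edgeR called S100a10 (adjusted p = 0.0050), S100a1 (adjusted p = 0.0261) and S100a13 (adjusted p = 0.0301), which is 3 of 8 members beside 5.26% of 8657 genes, from 2 libraries against 2. Version 3.1 gave 0 of 8, where 2 of 11039 genes were called. The difference between kits was then tested itself. It was 1.22 for S100a1 (SE 0.25, edgeR adjusted p = 0.0710), 1.14 for S100a13 (SE 0.32, adjusted p = 0.213) and -0.98 for S100a10 (SE 0.32, adjusted p = 0.280), and 0 of 8 members and 0.0861% of 10454 genes were called.

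In eOBs 7 of 8 members had 1 sign in both kits. The log2 fold changes in version 3 and version 3.1 were 1.27 and 1.72 for S100a4, -1.26 and -1.11 for S100a1, and -0.95 and -1.07 for S100b. Version 3 alone gave calls for S100a1 (edgeR adjusted p = 0.0358) and S100a10 (0.74, adjusted p = 0.0388), 2 of 8 members beside 5.81% of 4439 genes. The kit difference called 0 of 8 members and 0.567% of 9351 genes in eOBs. In other cells of version 3, where WT libraries 1 and 2 held most haematopoietic-like cells, edgeR called S100b (2.25) and S100a4 (-1.01), 2 of 8 members beside 31.4% of 15432 genes. In version 3.1 these were 0.68 and -0.13, with 0 of 8 members and 35 of 16271 genes called.

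**Figure D4:**
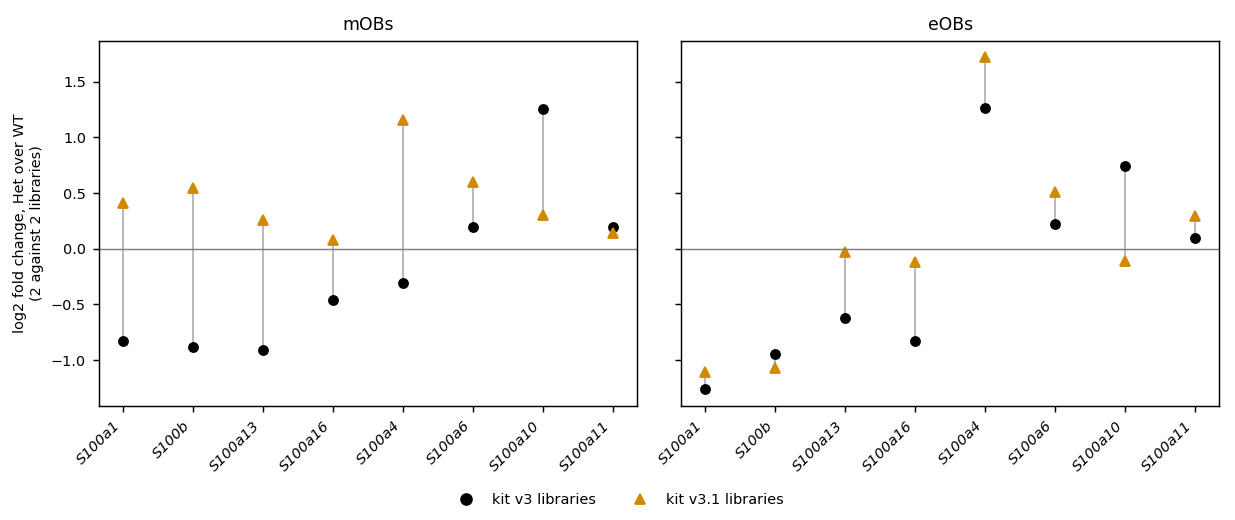
Log2 fold change of Het over WT fitted separately in the version 3 libraries (circles) and the version 3.1 libraries (triangles), 2 against 2 libraries each, in mOBs (left) and eOBs (right). In mOBs S100a1, S100b, S100a13, S100a16 and S100a4 change sign between kits and S100a10, S100a6 and S100a11 do not, while in eOBs S100a10 alone changes sign.

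S100 proteins act through their targets, so 11 partner genes were examined as a list. In mOBs 10 of the 11 were tested, 0 were called, and 10 of 10 fold changes were above 0, with a median of 0.39 against 0.01 over all genes. Smooth muscle or pericyte markers were also higher in every Het library than in every WT library in these cells (0.0221% to 0.0453% against 0.00630% to 0.0219%), and their part in the partner values was not tested. Anxa2, whose protein forms a complex with S100a10, had 0.0167% to 0.0397% of UMIs in the WT libraries and 0.0364% to 0.0598% in the Het libraries, which overlapped, and its log2 fold change, 0.78, had an SE of 0.22 (adjusted p = 0.173 by edgeR). Ahnak, a large membrane-associated protein that binds this complex, had 0.65 (SE 0.20, edgeR adjusted p = 0.211), and Anxa5 0.38 (SE 0.12, adjusted p = 0.257). Anxa2 and Ahnak were called in 4 of 22 alternatives each, which were no low-count filter, Het library 8 left out, chondrocyte-marker OBs left out and kit version 3 alone. Over the alternatives Anxa2 ran from 0.33 to 1.22 and Ahnak from 0.24 to 1.05, lowest in kit version 3.1 alone for both. In dOBs and eOBs 10 of 11 were tested and 0 called, with medians of 0.20 and 0.31 against -0.0039 and -0.0057 over all genes. The fold changes were above 0 for 10 of 10 in dOBs and 7 of 10 in eOBs. In dOBs smooth muscle or pericyte markers were again higher in every Het library (0.0594% to 0.0750%) than in every WT library (0.0385% to 0.0516%). Their part was not tested. In Col2a1-high and other cells 11 of 11 were tested and 0 called, with medians of -0.04 and -0.09. There 3 of 11 and 4 of 11 fold changes were above 0.

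Small EF-hand proteins outside the family served as a second list of 10 genes. All 10 were tested in mOBs and 0 were called, with a median of 0.03. Calm2, which codes for the calcium sensor calmodulin, had a log2 fold change of -0.18 (SE 0.13). Myl6, a myosin light chain, had 0.0548% to 0.0696% of UMIs in WT and 0.0700% to 0.0880% in Het mOBs, which did not overlap (beside 2.57% of genes), and 0.26 (SE 0.12, edgeR adjusted p = 0.457). Smooth muscle or pericyte markers were likewise higher in every Het than in every WT library in mOBs, and their part in this value was not tested.

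The remaining S100 genes had few UMIs in bone-forming cells. Of 9 genes in the list, S100a7l2 was not matched, and 0 were tested in mOBs. In eOBs S100a9 was tested, with a log2 fold change of -5.33 (SE 0.68, unadjusted p = 6.63e-06, edgeR adjusted p = 0.0579). In dOBs S100a8 and S100a9 had -2.46 and -2.63, and 0 were called in either stage. S100a8 and S100a9, the calprotectin subunits of neutrophils, were the exception to these low counts. In mOBs they had 758 and 941 UMIs in WT library 1 and 363 and 434 in WT library 2, against 0 to 12 in each remaining library. In eOBs they had 749 and 757 in WT library 1 and 130 and 231 in WT library 2, against 0 to 9 in each remaining library. In dOBs they had 488 and 499 in WT library 1 and 120 and 171 in WT library 5. The part of neutrophil RNA in the OB values was not tested. In other cells they took 2.05% and 2.39% of UMIs in WT library 1 and 1.25% and 1.65% in WT library 2, and 0.0211% to 0.173% in the remaining libraries. The 2 libraries are those with most haematopoietic markers. S100a2 (outside the list), S100a3, S100a5, S100a7a, S100a14, S100g and S100z had 0 to 43 UMIs per library and class.

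Among other cells, marker-defined classes differed widely in their S100 genes, as a description. S100a6 took 0.224% ± 0.046 of UMIs in smooth muscle or pericyte-like cells (SD, n = 7 libraries with 10 or more such cells) and 0.343% ± 0.057 in fibroblast-like cells (n = 3). S100a16 was at 0.0402% ± 0.0125 in endothelial-like cells (n = 8) and 0.000467% ± 0.000481 in haematopoietic-like cells. S100a4 was at 0.00287% ± 0.000752 in endothelial-like cells (n = 8) and 0.0719% in haematopoietic-like cells, and at 0.000390% ± 0.000376 in erythroid-like cells (n = 6). S100b was at 0.0350% in Schwann-like cells, which reached 10 cells in 2 libraries only, and at 0.0155% ± 0.0043 in chondrocyte-like cells with Col2a1 at or under 1% (n = 8). These sets hold 79 to 9792 cells, so their precision differs.

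The genes most like each member were sought over 40 sums, 8 libraries by 5 classes, by Pearson's r of log2(CPM + 1) among genes at 20 CPM or more. The sums share libraries and depth, and r is a description. S100b was most like Sox9 (r = 0.96), the master factor of cartilage, then Synpo (0.96) and the syndecan Sdc4 (0.94). S100a1 was most like Selenok, Pigp and the sulphate transporter Slc26a2 (r = 0.84, 0.83 and 0.81). S100a10 was closest to Arhgdia, Plec and Vim (0.95, 0.94 and 0.93), and S100a11 to Tln1, Flna and Tspo (0.93, 0.91 and 0.90), several of which code for cytoskeletal proteins.

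S100a6 had Supt16, Flna and Cyb5a as nearest genes (r = 0.83, 0.82 and 0.81), S100a4 had Cfl1, Ctsc and Uqcrc1 (0.83, 0.81 and 0.80), S100a13 had Dmac1, Dhrs4 and Nudt4 (0.84, 0.80 and 0.79), and S100a16 had Cxcl12, Acaa2 and Nudt4 (0.83, 0.83 and 0.82). Between members, S100a6 and S100a11 had r = 0.88, S100a10 and S100a11 0.83 and S100a1 and S100b 0.76. The head-to-head neighbours S100a1 and S100a13 had r = 0.07, while S100a1 and S100a10 had -0.56.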

How the data were processed

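The authors deposited UMI counts per gene and cell, made with Cell Ranger 5.0.0 (libraries 1 to 4) and 6.0.1 (libraries 5 to 8) on mm10 per the labels. Counting strand is not given in the sources used here. From these deposited counts, cells were filtered and classed as described, and UMIs were summed per library and class. Levels are percent of UMIs with mean ± SD over libraries. Genotypes were compared with edgeR 4.0.16 (filterByExpr, TMM, glmQLFit, glmQLFTest; R 4.3.3) with kit version as covariate; genes with adjusted p under 0.05 were called. Differences of genotype effects between classes used the library as block. Alternatives were DESeq2 1.42.0 with its size factors, no low-count filter, other cell and Col1a1 limits, thinned cells, no kit term, a replicate block and each library left out. The fits were tested on simulated data. Samples were grouped by title.

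Members and lists were chosen with earlier results of these data known. Named genes are all members, the other S100 genes, the partner and EF-hand genes (those called, otherwise the 3 with the highest mean CPM in mOBs) and the 3 genes closest to each member. The fits within kit versions, the genotype by kit term and the removal of OBs with chondrocyte markers were chosen after seeing the data. The study's cell-level Wilcoxon test was not used. Simulated doublets were marked (2.73% to 9.10% of cells per library) and left out only as an alternative. Nothing in the labels says whether libraries of 1 kit came from separate litters, so p-values measure the spread between these pools. Positions and starts come from GENCODE vM21 and RefSeq on GRCm38. Protein sequences were not used here. The values of 1 gene that the rule names are not reported here.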

Additional observations from a re-analysis of the deposited data

Results flagged for a closer look

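S100a6 in Col2a1-high cells stood apart in WT library 1, with 0.0716% of UMIs against 0.0292%, 0.0295% and 0.0252% in WT libraries 2, 5 and 6. The gap to the nearest library took 0.908 of the range of the 4. Of 80 groups of 4 libraries examined for the 8 members, 1 (1.25%) was flagged this way, and chance flags about 1 in 20.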

How the results depend on the processing

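The counts of members called (0 of 8 in each comparison) moved in few settings. In mOBs the count was 2 (2.91% of genes called) with no low-count filter, 3 (4.43%) with chondrocyte-marker OBs left out, which kept WT libraries 1, 2 and 5 and Het libraries 3 and 4, and 3 in kit version 3 alone. Leaving out 1 library gave 0 to 1 (1 without Het library 8, 1.71%). In eOBs it was 1 with DESeq2 (0.0344%), 3 with no filter (0.795%), 3 with chondrocyte-marker OBs left out (8.66%, libraries 1 to 4), 2 in kit version 3, and 0 to 1 without 1 library: without Het library 4, S100a4 had 1.70 (edgeR adjusted p = 0.0377; 0.00967%). In other cells it was 1 with DESeq2 and 2 in kit version 3, and for mOBs against Col2a1-high cells 3 with no filter (1.54%). Members lower in mOBs than in eOBs in every library numbered 5 with mOBs over 5% Col1a1 and 1 with eOBs under 0.5%.

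Signs turned for some members, and the cause was not tested. In mOBs, S100a1 ran from -0.37 to 0.019 without 1 library and was 0.41 in kit version 3.1. S100a4 was -0.43 with mOBs over 5%, -0.22 with chondrocyte-marker OBs left out and -0.31 in kit version 3. S100a13 was 0.26 and S100a16 0.081 in kit version 3.1, and S100a16 was 0.24 after thinning. S100b was -0.13 with DESeq2, -0.043 with no kit term, -1.68 with chondrocyte-marker OBs left out, -0.88 in kit version 3 and -0.68 to 0.49 without 1 library. Calm2 was 0.071 with chondrocyte-marker OBs left out. In kit version 3.1, S100a1 was 0.17 and S100a10 -0.091 in dOBs, and S100a10 -0.11 in eOBs. S100a4 in other cells was 0.61 with haematopoietic cells left out. Of the other settings for single genes, 499 kept direction and side of the threshold and 33 passed the threshold.

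The title numbers did not pair the libraries: deviations of same-numbered libraries had r of -0.05 and -0.03 in mOBs, -0.12 and 0.05 in dOBs and 0.03 and 0.12 in Col2a1-high cells. The replicate block called 58 genes in mOBs against 52, 0 of 8 members, and gave S100b -0.084. Few eOBs per library (22 to 95) and few S100b UMIs in mOBs limit precision.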
